A study of Mus musculus with 4 samples.

Results

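Matrix metalloproteinases (MMPs) are zinc-dependent enzymes that cut collagens and other proteins of the extracellular matrix, and tissue inhibitors of metalloproteinases (TIMPs) bind the active enzymes and block them. The members described here were 5 proteinase genes, Mmp2, Mmp3, Mmp9, Mmp13 and Mmp14, and 3 inhibitor genes, Timp1, Timp2 and Timp3. They were found by symbol among 18193 mouse genes that had a probe set annotated to 1 gene alone. The 8 genes had 20 such probe sets of 34945. In bone, MMPs remove and reshape collagen matrix as bone grows and is renewed, and osteoblasts, chondrocytes and osteoclasts each make a different selection of them. Most MMPs are made as inactive precursors, and Mmp14, which is anchored in the cell membrane, activates the Mmp2 precursor with the help of Timp2.

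RNA came from cultured mouse osteoblasts, the cells that form bone. All 4 groups carried the same genetic defect, given in the labels as cells lacking the IGF-1 receptor in one entry and as IGF-1 null in another, and the labels do not settle which. Cells were grown to confluence and deprived of serum, and insulin at 10 nM was then present for 6, 12 or 24 h in 3 of the groups, with an untreated control at 0 h as the fourth. Each group had 1 array, and the labels name no age, strain or number of cultures. The control was taken at 0 h alone, so hours in culture and insulin cannot be told apart. With 1 array per group, no replicate error exists, and every difference below is a description of single arrays without a test.

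Intensities are on the linear scale of the deposited values, and differences are on the log2 scale. The array medians lay between 64.97 and 65.75. A gene was read by its brightest probe set and entered the counts when its mean reached the median of all probe sets (an intensity of 66.2), which 11661 genes did, with all 8 members among them. Of the 20 member probe sets, 18 passed. The 0 h array stood apart from the insulin arrays: Xist, which coats the silenced X in female cells, had intensities of 109, 1636, 1278 and 1463 at 0, 6, 12 and 24 h, and the Y-linked gene Eif2s3y had 12.2, 295, 305 and 326. Median log2 differences from 0 h over the chromosomes that carry the members ran from -0.27 (chromosome 8, at 24 h) to 0.24 (chromosome 9, at 12 h). The part of these features in the differences from 0 h was not tested. All 3 comparisons with 0 h share that array, so any other difference of that array cannot be told apart from insulin. Of 10 osteoblast markers, 7 were measured. Sparc (18289.9 to 24979) and Col1a2 (20828 to 24963) were bright on every array, whereas Alpl, Sp7 and Pth1r, genes of more mature osteoblasts, were under the filter value at 0 h and above it with insulin. Ibsp was above the filter value on every array, with 202 at 0 h and 8849, 11705.5 and 13147 at 6, 12 and 24 h.

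Relative to the 0 h array, the members divided into a higher and a lower set. The collagenase Mmp13, the stromelysin Mmp3 and the inhibitors Timp1 and Timp3 were at least 2-fold higher on all 3 insulin arrays. The gelatinase Mmp9 was at least 2-fold lower on all 3, Mmp2 and Mmp14 were lower by smaller amounts, and Timp2 was slightly higher. At 6 h, 4 of 8 members were at least 2-fold higher, where 10.6% of all genes were, and 2 of 8 were at least 2-fold lower, where 4.62% were. The counts at 12 h were 4 higher, beside 11.7% of genes, and 1 lower, beside 5.31%. At 24 h they were 4 higher, beside 11.1%, and 1 lower, beside 4.82%. At all 3 times together, 4 members were higher and 1 lower, and 9.81% and 3.80% of genes were. The 1 lower was Mmp9, which passed the filter only through the 0 h array. The members were picked with results of these arrays already known, so these counts describe them and nothing more. The median log2 difference of the members was 1.01, 1.12 and 1.197 at 6, 12 and 24 h, against 0.01, 0.03 and -0.00012 over all genes.

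**Figure D1:**
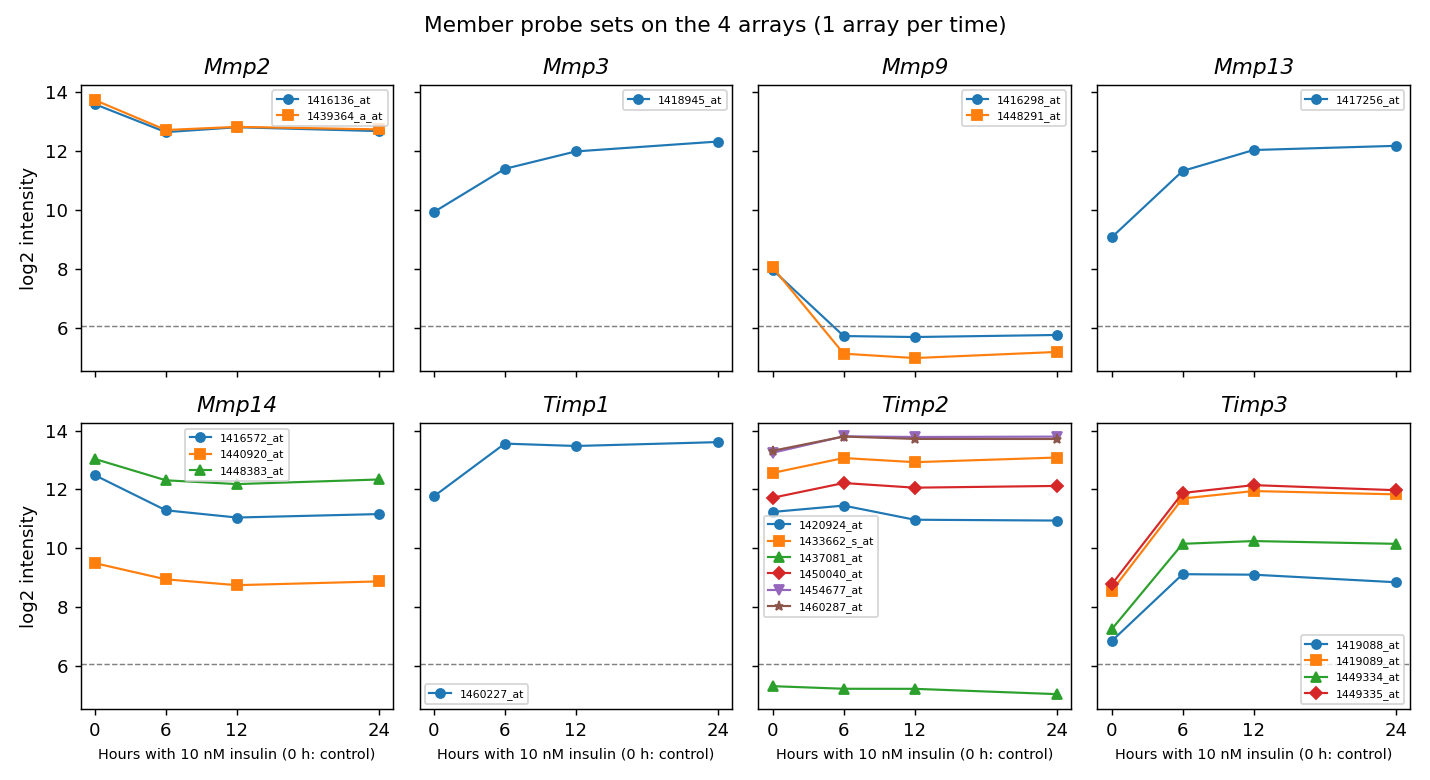
Log2 intensity (vertical axis) of each member probe set on the 4 arrays, plotted against hours with 10 nM insulin, with 1 array at each time and no error bars. The dashed line is the brightness filter. Mmp3 and Mmp13 climb from 0 h through 24 h, Timp1 and Timp3 are high and level on the 3 insulin arrays, and both Mmp9 probe sets drop under the dashed line.

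Mmp13 encodes the main collagenase of rodent bone and cartilage, which cleaves fibrillar collagen. Its probe set (1417256_at) read 535 at 0 h, then 2564, 4201 and 4636 at 6, 12 and 24 h. The order of the arrays was the order of time, with the 0 h array lowest and the 24 h array highest. Mmp3 encodes stromelysin, which degrades proteoglycans and activates other MMP precursors. Its probe set (1418945_at) had 972 at 0 h and 2695, 4065 and 5131 at 6, 12 and 24 h, again in the order of time. Each gene was represented by 1 probe set, so no second measurement of the transcript stands beside it. Mmp13 was 4.79, 7.85 and 8.66-fold higher than at 0 h and Mmp3 was 2.77, 4.18 and 5.28-fold higher. Among 11661 genes, Mmp13 ranked 421, 308 and 290 from the highest difference at the 3 times and Mmp3 ranked 778, 547 and 439.

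The comparison of insulin arrays with each other leaves out the 0 h array. Mmp3 and Mmp13 were at least 1.5-fold higher at 12 h than at 6 h, 2 of 8 members beside 1.14% of genes, and no member was 1.5-fold lower, beside 0.334%. At 24 h against 6 h the same genes passed, 2 of 8 beside 1.68%, and none was lower, beside 0.12%. At 24 h against 12 h no member was 1.5-fold higher or lower, and only 0.103% of genes were higher and 0.103% lower. Mmp3 was 1.51-fold higher at 12 h and 1.90-fold higher at 24 h than at 6 h, and the 24 h difference ranked 63 of 11661 genes. Mmp13 was 1.64-fold higher at 12 h and 1.81-fold higher at 24 h, and the latter ranked 85. From 12 to 24 h Mmp3 differed by 1.26-fold and Mmp13 by 1.10-fold. The representative probe sets of the other 6 members differed by at most 1.202-fold over the 3 insulin arrays, the most being Timp3. Of their remaining probe sets, 1420924_at of Timp2 differed most, by 1.42-fold, from 2800 at 6 h down to 1969 at 24 h.

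**Figure D2:**
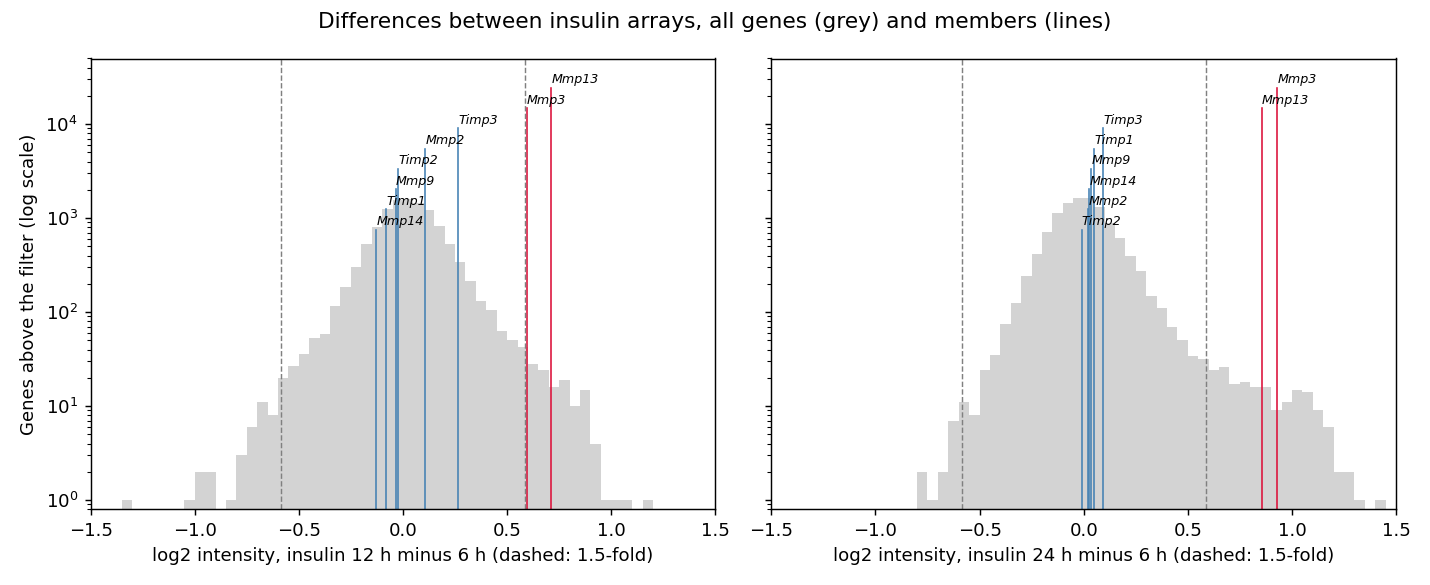
Number of genes (vertical axis, log scale) by log2 difference between insulin arrays, for 12 h minus 6 h on the left and 24 h minus 6 h on the right, with grey bars for all 11661 genes and lines for the 8 members. Mmp3 and Mmp13 (red) lie at 0.59 and 0.71 on the left and at 0.93 and 0.85 on the right, past the dashed 1.5-fold line, and the other members (blue) lie near 0.

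Sequences upstream of the gene starts are shown because Mmp3 and Mmp13 moved in the same order over the arrays and are textbook targets of AP-1, the dimer of Fos and Jun proteins, together with ETS factors. They are the 250 bases before the start in RefSeq, mouse build GRCm38.p6, printed 5′ to 3′ on the strand of the gene, and 6 of the 8 members had such a window (Mmp3, Mmp13, Mmp14, Timp1, Timp2 and Timp3). Capitals mark matches to the AP-1 site TGANTCA and to the ETS core AGGAAG or AGGAAA on either strand, and the motifs searched do not overlap in these windows. The Mmp13 window is chr9:7272264-7272513 and the Mmp3 window is chr9:7445572-7445821, both on the plus strand. The windows of Timp1, chrX:20869916-20870165, and Timp3, chr10:86300162-86300411, also on the plus strand, are set beside them as the other members that were at least 2-fold higher.
Mmp13: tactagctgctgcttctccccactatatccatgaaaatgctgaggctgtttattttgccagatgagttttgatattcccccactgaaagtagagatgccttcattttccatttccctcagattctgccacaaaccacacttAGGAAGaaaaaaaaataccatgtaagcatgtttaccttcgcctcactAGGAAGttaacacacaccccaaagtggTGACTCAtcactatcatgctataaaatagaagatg
Mmp3: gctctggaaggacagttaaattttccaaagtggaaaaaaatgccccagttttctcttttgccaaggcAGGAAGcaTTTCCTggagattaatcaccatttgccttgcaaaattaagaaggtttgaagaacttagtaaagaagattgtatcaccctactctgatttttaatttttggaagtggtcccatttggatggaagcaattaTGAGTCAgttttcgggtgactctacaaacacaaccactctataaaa
Timp1: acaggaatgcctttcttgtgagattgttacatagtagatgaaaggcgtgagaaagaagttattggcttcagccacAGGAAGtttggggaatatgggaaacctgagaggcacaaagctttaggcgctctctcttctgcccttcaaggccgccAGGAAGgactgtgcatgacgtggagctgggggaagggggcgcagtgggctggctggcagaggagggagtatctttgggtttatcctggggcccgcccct
Timp3: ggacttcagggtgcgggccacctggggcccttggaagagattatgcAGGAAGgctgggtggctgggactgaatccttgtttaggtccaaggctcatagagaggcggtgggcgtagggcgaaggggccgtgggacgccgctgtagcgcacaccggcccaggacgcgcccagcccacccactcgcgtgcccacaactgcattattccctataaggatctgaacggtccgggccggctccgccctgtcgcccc

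Mmp13 held TGACTCA from 35 to 29 bases before its start, and Mmp3 held TGAGTCA from 46 to 40 bases before its start. The letters TGANTCA were in 6.75% of 32817 RefSeq windows of this length, and in the last 100 bases before the start of 2.73%. The other 4 member windows did not hold these letters. ETS core letters were present at 2 places each in Mmp13, Mmp3 and Timp1, at 1 place each in Mmp14 and Timp3 and at none in Timp2, and 46.7% of all windows held them. Both motifs together were found in 3.35% of all windows. These are matches of letters only. The AP-1 genes themselves were mixed, and of 7 listed, 6 passed the filter. Beside 9.81% of all genes, 1 of these 6 was at least 2-fold higher at all 3 times. That gene was Fos, with intensities of 139, 340, 398 and 308 at 0, 6, 12 and 24 h. Jun had 664, 1078, 1055 and 1083. Fosl1 had 584, 433, 326 and 331, and Fosl2 had 1339, 2008, 2131 and 2237, but a second Fosl2 probe set above the filter pointed the opposite way.

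Mmp3 and Mmp13 belong to a run of 10 MMP genes on chromosome 9 with no other protein-coding gene between them in RefSeq. The order is Mmp13, Mmp12, Mmp1b, Mmp3, Mmp1a, Mmp10, Mmp8, Mmp27, Mmp20 and Mmp7, and 9 had a probe set with 1 symbol. Mmp12, the elastase of macrophages, read 32.7, 189.9, 323 and 399 over the 4 arrays in time order. The ratios to 0 h were 5.80, 9.88 and 12.2. The 0 h value was below the filter value, so these ratios rest on a signal near background and the gene passed only through the insulin arrays. Mmp12 was also 2.10-fold higher at 24 h than at 6 h. Mmp10, a second stromelysin, had 50.4, 112, 91.6 and 92.2. Mmp7, the small secreted matrilysin, had 97.5, 83.8, 83.3 and 84.2. The remaining measured genes, Mmp1a, Mmp1b, Mmp8 and Mmp20, were below the filter value on all 4 arrays. These 4 dim genes show no direction. Of the 5 above the filter, 3 were at least 2-fold above 0 h at all 3 times, beside 9.81% of all genes, counting the members Mmp3 and Mmp13. Mmp10 was 2.23, 1.82 and 1.83-fold higher, with its 0 h value below the filter value, and Mmp7 was lower at each time.

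**Figure D3:**
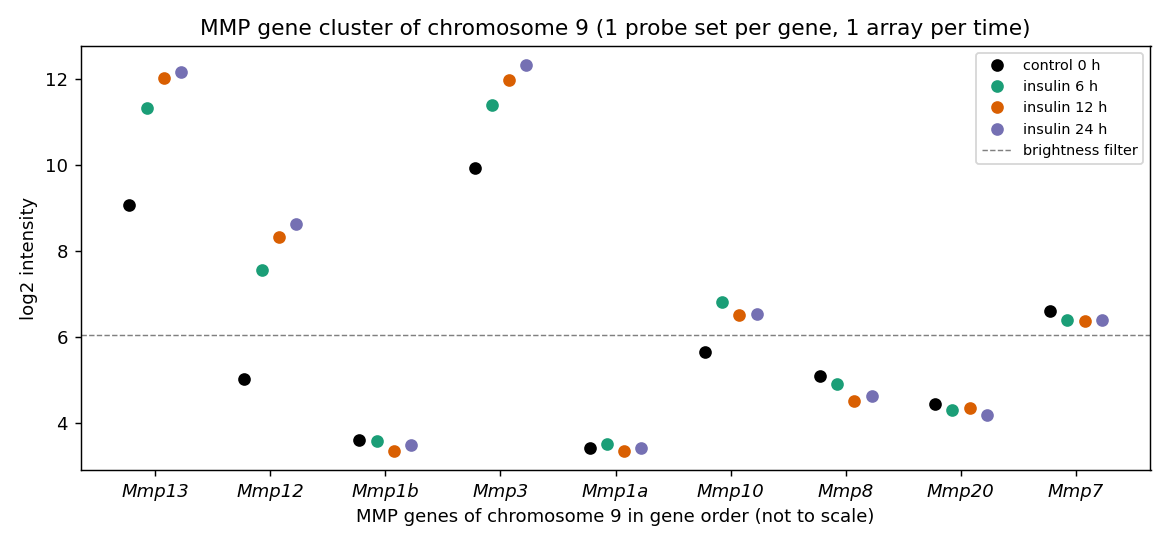
Log2 intensity (vertical axis) of the 9 measured MMP genes of chromosome 9, placed in gene order and not to scale, with 1 point per array. Mmp13, Mmp12 and Mmp3 are the 3 genes with all insulin arrays at least 2-fold above 0 h, and Mmp1b, Mmp1a, Mmp8 and Mmp20 lie under the dashed brightness filter throughout.

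Mmp9, the gelatinase that is best known from osteoclasts, macrophages and neutrophils, went the other way. Its brighter probe set (1416298_at) had 249 at 0 h and 52.4, 51.2 and 53.7 at 6, 12 and 24 h. The other (1448291_at) had 264 at 0 h and 34.5, 31.2 and 36.0. Both were high on the 0 h array alone and below the filter value on every insulin array, so the size of the fold rests on values near background. The first was 4.76, 4.87 and 4.64-fold lower than at 0 h and the second 7.63, 8.46 and 7.33-fold. Among 11661 genes, Mmp9 ranked 57, 61 and 64 from the lowest difference at 6, 12 and 24 h. It passed the filter only through the 0 h array, so its direction in this ranking was fixed by its entry.

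Markers of macrophages and osteoclasts were read beside Mmp9. Of 18 macrophage and osteoclast markers, 10 passed the filter. At all 3 times 9 of them were at least 2-fold higher and 0 lower, beside 9.81% and 3.8% of all genes. Of those 10, 6 were under the filter value at 0 h and passed only through the insulin arrays, so the filter partly fixes the direction of this count. The summed intensity of all 18 was 1095 at 0 h and 6604, 8228 and 9278 at 6, 12 and 24 h. Csf1r, the receptor of macrophage colony-stimulating factor, had 137, 676, 900.1 and 1006, and the lysozyme gene Lyz2 had 248, 3565, 4354 and 4914. The macrophage markers Itgam (20.3, 21.3, 26.6 and 26.1) and Aif1 (47.2, 50.9, 62.2 and 60.9) stayed below the filter value. Acp5, the acid phosphatase of osteoclasts, had 43.3, 78.4, 101.8 and 94.0, while the osteoclast genes Calcr, Oscar, Dcstamp and Ocstamp were below the filter value on all arrays. All 7 measured neutrophil markers had a mean below the filter, with a summed intensity between 273 and 301. The part of macrophages in the MMP differences was not tested. In bulk RNA, fewer cells of a type and less RNA per cell cannot be told apart.

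Mmp2, the gelatinase that many mesenchymal cells secrete without stimulation, was among the bright members on every array. Probe set 1439364_a_at had 13635 at 0 h and 6733, 7251 and 6834 at 6, 12 and 24 h. Probe set 1416136_at had 12382 at 0 h and 6403, 7187 and 6563. On both, the 0 h array was highest and the insulin arrays lay close together. The brighter was 2.03, 1.88 and 1.995-fold lower than at 0 h and the other 1.93, 1.72 and 1.89-fold. Mmp2 thus passed the 2-fold threshold only at 6 h and only by the brighter probe set.

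Mmp14, the membrane-anchored collagenase that activates the Mmp2 precursor, was lower on all 3 of its probe sets. The brightest (1448383_at) had 8410.4 at 0 h and 5084, 4650.0 and 5183 at 6, 12 and 24 h, which is 1.65, 1.81 and 1.62-fold lower. Probe set 1416572_at had 5734, 2507, 2115 and 2294, and was 2.29, 2.71 and 2.50-fold lower. Probe set 1440920_at had 722, 492, 429 and 469, and was 1.47, 1.68 and 1.54-fold lower. The direction was shared by the probe sets, and whether the gene passed 2-fold depended on which was read.

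The inhibitor Timp3, which binds to the extracellular matrix and also blocks ADAM proteases, had the largest positive difference of the members at each time by its brightest probe set. With the mean of all probe sets it was 2.85 log2 at 24 h, below Mmp13 at 3.11. Its brightest probe set (1449335_at) had 436 at 0 h and 3774, 4536 and 4028 at 6, 12 and 24 h, which is 8.65, 10.4 and 9.23-fold higher. Probe set 1419089_at had 374, 3311, 3948 and 3651. The dimmer sets had 151, 1138, 1214 and 1138 (1449334_at) and 115, 556, 550 and 460.1 (1419088_at). All 4 were lowest at 0 h and similar on the insulin arrays, and their folds ran from 4.85 to 8.86 at 6 h, from 4.79 to 10.6 at 12 h and from 4.01 to 9.77 at 24 h. Timp3 ranked 248, 236 and 270 of 11661 genes from the highest difference.

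Timp1, a secreted inhibitor of most MMPs that many cells induce on stimulation, had 3478 at 0 h and 12071, 11416 and 12505 at 6, 12 and 24 h. Its single probe set (1460227_at) was therefore 3.47, 3.28 and 3.60-fold higher than at 0 h, with the insulin arrays within 1.10-fold of each other.

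Timp2, the inhibitor that takes part in Mmp2 activation, had 6 probe sets that did not all point one way. The brightest (1454677_at) had 9738 at 0 h and 14338, 14111 and 14239 at 6, 12 and 24 h, or 1.47, 1.45 and 1.46-fold higher. Probe sets 1460287_at, 1433662_s_at and 1450040_at were higher at each time as well, by 1.27 to 1.44-fold. Probe set 1420924_at had 2412, 2800.3, 2007 and 1969, higher than 0 h at 6 h and lower at 12 and 24 h. The last, 1437081_at, was below the filter value on every array (39.7, 37.3, 37.3 and 32.9). No probe set of Timp2 reached 2-fold.

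Counted by probe set, 7 of the 18 that passed the filter were at least 2-fold higher at 6, 12 and 24 h each, all of them from Mmp3, Mmp13, Timp1 and Timp3, beside 9.55%, 10.4% and 10.0% of named probe sets. At least 2-fold lower were 3, 2 and 2 of them, beside 4.99%, 6.18% and 5.72%. Probe sets of a gene share their transcript and their sample, so they are not replicates of a condition.

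**Figure D4:**
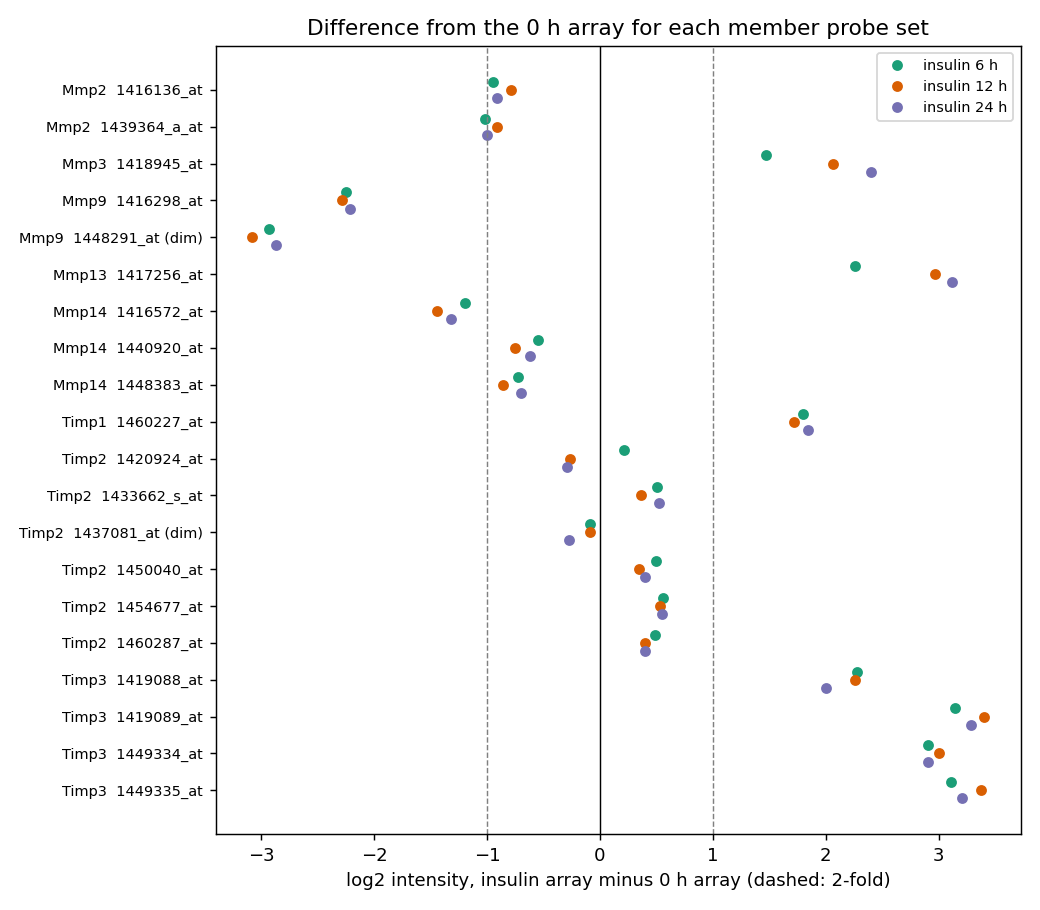
Log2 difference of each insulin array from the 0 h array (horizontal axis) for all 20 member probe sets, with 1 point per time and dashed lines at 2-fold. All Timp3 sets lie past the upper dashed line, and the 6 Timp2 sets lie between the dashed lines. The Mmp2 sets lie between -1.02 and -0.78, with only the brighter set at 6 h past -1.

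By counts at all 3 times, most lists of other proteolytic genes leaned to the higher side. The ADAMTS genes lay near the share of all genes, and the plasminogen system had 0 higher and 1 lower. Some of the higher genes passed the filter only through the insulin arrays, so the filter partly fixes the direction of these counts. Over all genes, 9.81% were at least 2-fold higher at all 3 times and 3.8% lower, and the list counts stand beside these shares. Of 18 other MMPs, 13 had a probe set and 9 passed the filter, and 3 were at least 2-fold higher at all 3 times with 0 lower, for medians of 1.16, 0.86 and 0.87. Besides Mmp12 these were Mmp16, a membrane-anchored MMP (117, 914, 1007 and 897 at 0, 6, 12 and 24 h), and Mmp23 (652, 1789, 2218 and 2091). Mmp11, a secreted MMP of stromal cells, went the other way with 676.5, 307, 327 and 341, at least 2-fold lower at 6 and 12 h but not at 24 h. Of the other MMP inhibitors 2 of 5 passed the filter and both were higher. Reck, a membrane-anchored inhibitor of several MMPs, had 587, 1245, 1854 and 1564, and Tfpi2, an inhibitor of plasmin and other serine proteases, had 40.5, 348, 219 and 271, below the filter value at 0 h. Timp4 had 56.3, 58.3, 61.0 and 61.5, below the filter value on all arrays.

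Among 10 ADAMTS genes that passed the filter 1 was higher at all 3 times, near the 9.81% of all genes. None was lower, beside 3.8% of all genes, and the medians were -0.03, -0.15 and 0.05. The higher gene was the aggrecanase Adamts5, with 1270, 4049, 5329 and 4701. Of 8 ADAM genes 3 were higher and 0 lower, with medians of 0.19, 0.40 and 0.20, and Adam12, a metalloprotease of mesenchymal cells, had 76.7, 787, 663 and 735. Adam19 was 2.22, 2.02 and 2.12-fold higher and Adam8 2.06, 2.01 and 2.24-fold. Of 3 plasminogen system genes above the filter 0 were higher and 1 lower, with medians of 0.10, -0.09 and -0.01. That was Plat, tissue plasminogen activator, with 2668, 1257, 911 and 1104.

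The shares over all genes at all 3 times were again 9.81% higher and 3.8% lower. Of 6 genes of MMP precursor activation, 2 were higher at all 3 times and 0 lower, with medians of 0.37, 0.35 and 0.35. These were the proprotein convertases Pcsk5 (48.1, below the filter value, then 399, 522 and 485) and Pcsk6 (102, 330, 372 and 346), while Furin, the convertase that processes the Mmp14 precursor, had 225, 291, 295 and 303. Of 9 cathepsin and cystatin genes 4 were higher and 0 lower, with medians of 1.03, 0.99 and 1.04. Ctsc had 38.1, 1247, 1408 and 1558 and Ctss 51.0, 1079, 1601 and 1721, both below the filter value at 0 h. Ctsh was 10.7, 12.3 and 13.2-fold higher and Ctsz 3.32, 3.39 and 3.23-fold. Ctss is best known from antigen-presenting cells, and the part of such cells in the cathepsin differences was not tested. Ctsk, the collagen-degrading cathepsin of osteoclasts, had 1704, 3468, 3374 and 3503.

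**Figure D5:**
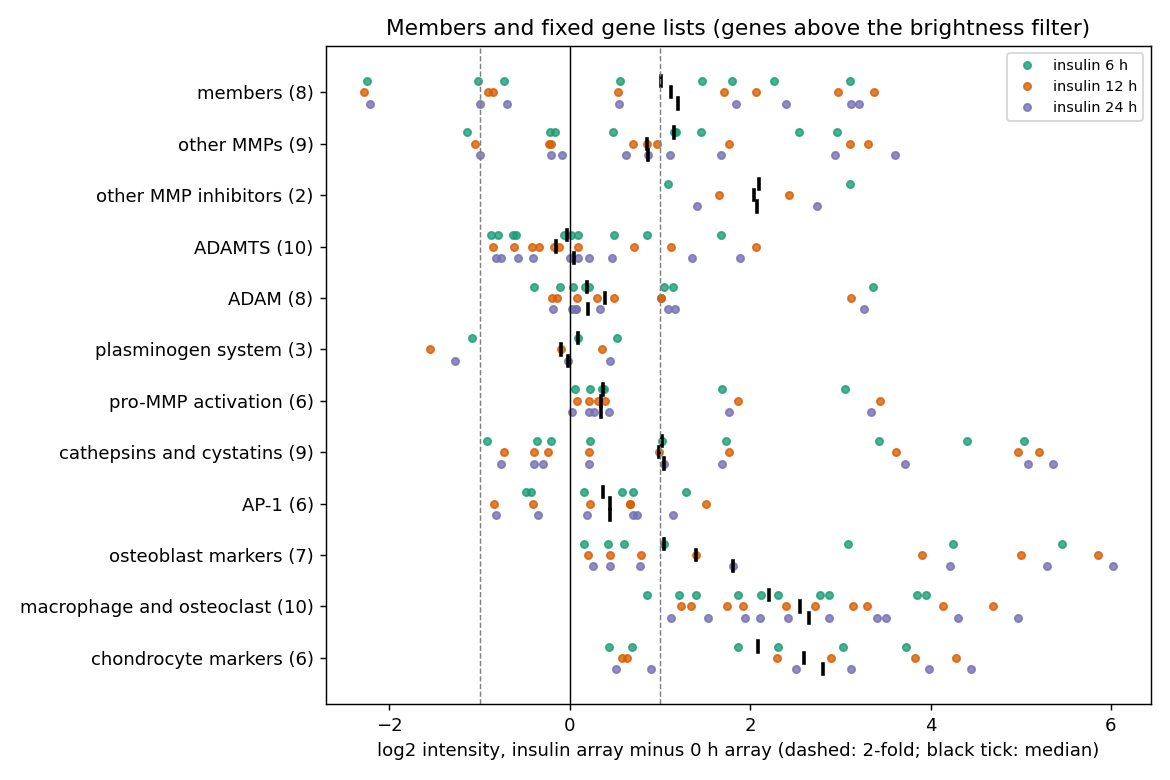
Log2 difference of each insulin array from 0 h (horizontal axis) for the members and 11 fixed gene lists, with 1 point per gene above the brightness filter, the number of genes in brackets and a black tick at the median. The members spread from -2.28 to 3.38, and the osteoblast, macrophage and chondrocyte marker lists lie wholly above 0. Of these markers, 3 of 7 osteoblast, 6 of 10 macrophage and 3 of 6 chondrocyte were below the filter value at 0 h. They passed only through the insulin arrays, so the filter partly fixes the direction of these lists. Each gene is shown by its brightest probe set. For Col1a1, Sparc and Laptm5, another probe set above the filter pointed the opposite way at all 3 times.

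The genes whose profile over the 4 arrays was nearest to a member were then read for the 5 members at least 2-fold from 0 h at all 3 times, with likeness measured as the root mean square distance of log2 values after each gene was centred on its own mean. For Mmp13 they were Col10a1 (0.0434), Fxyd1 (0.055) and Col14a1 (0.0675). Col10a1, the collagen of hypertrophic chondrocytes, had 35.4, 176, 264 and 307 at 0, 6, 12 and 24 h. For Mmp3 they were Lrg1 (0.0246), Galnt3 (0.0361) and Fabp4 (0.0479), a fatty acid-binding protein of adipocytes and macrophages with 664, 1879, 2883 and 3834. For Mmp9 they were Adh7 (0.0318), Tcim (0.0402) and Dipk1a (0.0447), for Timp1 Ttc12 (0.0284), Akap2 (0.0347) and Peg3 (0.036), and for Timp3 Tox (0.0249), Ctsf (0.0387) and Tafa5 (0.0449). Each profile has 4 points, and the list is a description only. Lrg1, Galnt3, Col10a1, Col14a1, Tox and Tafa5 were below the filter value at 0 h and passed only through the insulin arrays. Their match to a member at 0 h rests on a signal near background. Mmp9 itself was below the filter value on all 3 insulin arrays, so its profile there also rests on a signal near background. Within the members the distance was smallest between Mmp2 and Mmp14 (0.135) and largest between Mmp9 and Timp3 (2.38). Mmp3 and Mmp13 were 0.3548 apart, and each lay slightly nearer to an inhibitor, Mmp3 to Timp1 (0.3355) and Mmp13 to Timp3 (0.333).

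Some cell type markers shared the order of Mmp3 and Mmp13 over the insulin arrays, lowest at 6 h and highest at 24 h. Of the markers above the filter, 4 of 6 chondrocyte, 5 of 7 osteoblast, 8 of 10 macrophage and osteoclast and 3 of 3 adipocyte markers had this order, and Sox9, Matn3, Col1a1, Sparc, Cd53 and Acp5 did not. The share of all genes with this order was not counted, so these counts are a description only. From 6 to 24 h the median log2 difference was 0.68 over 6 chondrocyte markers, 0.57 over 7 osteoblast markers, 0.55 over 10 macrophage and osteoclast markers and 1.03 over 3 adipocyte markers, against -0.0023 over all genes. At least 1.5-fold higher at 24 h than at 6 h were 4, 3, 3 and 3 of them, beside 1.68% of all genes. Summed over all measured markers of a list, those below the filter included, the intensities at 0, 6, 12 and 24 h were 950.5, 4671, 6628 and 7343 for chondrocyte markers and 53282, 78900.4, 86711 and 89509 for osteoblast markers. For adipocyte markers they were 957, 2542, 3999 and 5227. Fabp4 (664 at 0 h and 3834 at 24 h) and Adipoq (23.4, below the filter value, and 1141) were higher than at 0 h. Pparg, with 223, 107, 184 and 196, was lower than at 0 h on every insulin array. Of 6 endothelial markers 1 passed the filter and the sums ran from 226 to 258. The part of these cell types in the Mmp3 and Mmp13 differences was not tested.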

How the data were processed

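The authors deposited linear-scale intensities, 1 for each probe set on each array, made with RMA per the submitters' processing notes. RMA normalizes arrays to each other and can compress differences of dim probe sets. No software version or build was found in the labels or file headers. From these intensities, which ran from 7.34 to 31292, log2 was taken and arrays were subtracted, and no test was possible with 1 array per group. Of 45101 probe sets 64 controls were left out, and the platform annotation, which can be old, named 1 gene for 34945, several for 932 and none here for 9160. Each gene was represented by the probe set whose log2 mean was highest, and kept when it reached the median of all probe sets. Members and gene lists were chosen with earlier results of these data known. All members were named, and of each pathway list up to 4 genes at least 2-fold from 0 h the same way at all 3 times, plus the 3 genes nearest each such member and genes picked after their values were seen (other AP-1, marker and chromosome 9 genes, Mmp11, Timp4, Furin and Ctsk). Markers with no probe set of 1 symbol were not analysed here. A RefSeq table (GRCm38.p6) gave chromosomes, gene order and upstream windows. Counting was tested on simulated data. Alternatives were other probe set rules, brightness filters, normalizations, fold thresholds, 32 added to each intensity, and chromosome medians removed. Python 3.11.15, numpy 2.4.6, pandas 2.3.3, statsmodels 0.14.6 and matplotlib 3.10.9 were used.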

Additional observations from a re-analysis of the deposited data

How the results depend on the processing

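The direction of each of the 8 members against 0 h was the same under 9 alternatives that keep the fold threshold, except that Mmp9 could not be read under 2 of them, where it fell below the filter. No called difference changed sign, and the largest move of any member difference was 0.53 log2. The count of members at least 2-fold higher was 4 at each time under every alternative except the 3-fold threshold, where it was 3 at 6 h. The count of members at least 2-fold lower (2, 1 and 1 at 6, 12 and 24 h) depended on Mmp2 and Mmp14, which lie near the threshold, and on the filter for Mmp9. It was 0 at 6 and 24 h with the mean of all probe sets, 1 at 6 h with suffixed probe sets left out, 1, 0 and 0 with a filter 1 log2 unit higher, 2 at 24 h with median centring, and 1 at 6 h and 2 at 12 h with chromosome medians removed. It was 3 at 6, 12 and 24 h at 1.5-fold, and 1 at 6 h at 3-fold. The count apart between 12 h and 6 h fell from 2 to 1 with quantile normalization and with chromosome medians removed, since Mmp3 lies at 0.59 log2. At 2-fold it was 0 for 12 h and for 24 h against 6 h, and at the lower threshold tried it was 1 for 24 h against 12 h. Signal over background limits Mmp9 on the insulin arrays. No replicate could be left out and no paired analysis was possible because each group holds 1 array. A planned search of protein motifs was not run.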
